A study of Mus musculus with 2 samples.

Results

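The respiratory chain subunits encoded in the nuclear genome were compared between a mouse embryonic fibroblast line without Usp16 and a line with it. The genes were taken by symbol: Ndufa, Ndufb, Ndufc, Ndufs or Ndufv followed by a number, any symbol starting with Uqcr or Atp5, Cox4 to Cox8 followed by a letter, and Sdha to Sdhd, Cyc1 and Ndufab1. The 6 rows whose symbols end in -ps, which hold 0 counts in UKS and 1 count in KS, were left out. This gave 86 genes of the 51912 gene rows: 36 for complex I, 4 for complex II, 9 for complex III, 20 for complex IV and 17 for complex V. They lie on 19 chromosomes.

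Complexes I to IV of the inner mitochondrial membrane pass electrons from NADH and succinate to oxygen, and complexes I, III and IV pump protons while they do so. Complex V, the ATP synthase, makes ATP as the protons flow back. Complex II is built from nuclear genes alone, whereas each of the other complexes joins nuclear subunits to a few made inside the mitochondrion. In fibroblasts immortalised in culture, respiration runs beside a high rate of glycolysis.

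Usp16 encodes an enzyme known for taking ubiquitin off histone H2A. The UKS line had lost Usp16 (Usp16-/-), its floxed alleles having been deleted by infection with Ad-Cre, an adenovirus that carries Cre recombinase. The KS line was Usp16+/+ and had been infected with Ad-Cre as well. Both were mouse embryonic fibroblasts (MEFs) on a C57BL/6 background, taken from embryos of an age that the labels do not give, and immortalised with SV40T, the large T antigen of simian virus 40. Each line was sequenced once, as total RNA in a TruSeq library, so none of the differences has a replicate check and no test between the lines was possible. Bracketed ranges are exact 95% intervals that cover counting error only. A line grown from one culture may differ from another by more than its genotype.

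The UKS library held 23205734 counts and the KS library 26561600. Usp16 itself had 459 counts in UKS and 1195 in KS, a count over the whole gene that was 2.30-fold lower in UKS [2.07 to 2.57]. All 9 fibroblast markers were measured in both libraries, and 6 of the 9 were lower in UKS, among them Thy1 (log2 ratio -2.20), Pdgfra (-1.51), Col1a2 (-0.86) and Vim (-0.80). The other 3 were higher in UKS: Fn1 (0.70), Pdgfrb (0.48) and S100a4 (0.14). Their summed level was 20985 CPM in UKS and 18861 CPM in KS, and without Fn1 it was 6403 CPM in UKS and 9866 CPM in KS. Of the muscle markers 0 of 8 passed the filter on low levels, and 3 of 11 epithelial, macrophage and endothelial markers did. Of 6 adipocyte markers 2 passed, Fabp4 with 1125 counts in UKS and 116 in KS and Lpl with 30 counts in UKS and 595 in KS, while Adipoq had 0 counts in UKS and 1 in KS. The part of these differences in the results was not tested. The libraries also differed in genes of the sex chromosomes: Xist had 6998 counts in UKS and 1 in KS, and Ddx3y had 1 count in UKS and 1511 in KS. Genotype, sex-chromosome content and line cannot be told apart in any ratio given here.

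Levels are in CPM, a gene's count scaled to the size of its library with factors from the trimmed mean of M-values (TMM). The log2 ratio is that of UKS over KS after 1 CPM is added to each, which understates the difference of low genes. A gene counts as measured where its mean over both libraries is at least 1 CPM, which held for 13015 genes in all, with a median log2 ratio of 0.03 and quartiles of -0.47 and 0.40. "At least 1.5-fold" and "at least 2-fold" refer to this log2 ratio and are sizes, not tests.

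The promoters of 5 subunit genes are printed to show the motifs in their context. They belong to the gene with the highest ratio in each complex among those holding one of 3 searched motifs, a choice made after the values were seen. Each runs 5' to 3' from 250 bases before to 50 bases after the start of the gene, from RefSeq on GRCm38.p6, with the motif letters in capitals. The motifs were GCATGCGC (bound by NRF1), CCGGAAG (bound by ETS factors such as GABPA) and AAGATGGC (bound by YY1), searched on both strands. The 2 strands of the NRF1 motif overlap in Cox6a1, where they give one run of capitals.
Ndufc1, complex I, chr3:51408906-51409205, minus strand, YY1 letters.
Ndufc1: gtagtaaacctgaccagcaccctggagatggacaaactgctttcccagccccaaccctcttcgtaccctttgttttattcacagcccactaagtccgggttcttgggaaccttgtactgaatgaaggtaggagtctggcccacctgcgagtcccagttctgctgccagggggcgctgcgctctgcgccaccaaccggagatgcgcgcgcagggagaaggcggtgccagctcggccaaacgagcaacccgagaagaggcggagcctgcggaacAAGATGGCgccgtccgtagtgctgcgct
Sdhb, complex II, chr4:140961021-140961320, plus strand, NRF1 then ETS letters.
Sdhb: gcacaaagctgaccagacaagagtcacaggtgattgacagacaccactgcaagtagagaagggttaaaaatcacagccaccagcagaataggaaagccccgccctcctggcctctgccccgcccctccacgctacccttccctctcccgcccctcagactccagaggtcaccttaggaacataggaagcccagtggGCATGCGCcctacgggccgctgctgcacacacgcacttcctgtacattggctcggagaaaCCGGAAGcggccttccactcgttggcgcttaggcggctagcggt
Uqcrh, complex III, chr4:116075021-116075320, minus strand, ETS letters on the reverse strand.
Uqcrh: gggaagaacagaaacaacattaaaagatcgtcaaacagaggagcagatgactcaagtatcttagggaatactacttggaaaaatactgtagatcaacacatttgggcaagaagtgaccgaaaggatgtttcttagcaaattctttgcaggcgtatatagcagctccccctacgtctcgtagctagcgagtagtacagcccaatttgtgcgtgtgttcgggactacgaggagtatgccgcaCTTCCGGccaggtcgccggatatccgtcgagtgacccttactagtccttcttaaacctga
Cox6a1, complex IV, chr5:115348909-115349208, minus strand, NRF1 letters then ETS letters on the reverse strand.
Cox6a1: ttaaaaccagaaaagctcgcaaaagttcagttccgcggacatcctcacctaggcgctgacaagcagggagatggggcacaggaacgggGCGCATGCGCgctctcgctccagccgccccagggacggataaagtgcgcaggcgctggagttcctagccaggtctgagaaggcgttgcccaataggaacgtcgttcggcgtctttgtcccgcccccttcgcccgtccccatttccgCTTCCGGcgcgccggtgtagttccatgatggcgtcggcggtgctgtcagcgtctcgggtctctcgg
Atp5e, complex V, chr2:174464052-174464351, minus strand, ETS letters on the reverse strand.
Atp5e: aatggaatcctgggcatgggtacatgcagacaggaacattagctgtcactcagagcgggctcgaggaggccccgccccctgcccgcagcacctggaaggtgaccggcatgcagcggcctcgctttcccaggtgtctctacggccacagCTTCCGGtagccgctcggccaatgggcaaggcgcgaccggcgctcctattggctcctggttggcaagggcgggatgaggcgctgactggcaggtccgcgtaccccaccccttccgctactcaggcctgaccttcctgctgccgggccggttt

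Promoters were sought for the 79 measured genes, of which 65 matched one in RefSeq. Of these, 59 start within 500 nt of the gene start in GENCODE M21. The other 6, among them the motif holders Atp5g2, Atp5f1 and Atp5j2, start farther away. The NRF1 letters stood in 10 of the 65 (15.4%), against 2.80% of all 27025 mouse promoters of the same length. Those 27025 were not limited to measured genes, so each share of all promoters given here includes genes under the filter. The ETS letters stood in 15 (23.1%), against 9.12% of all promoters, and the YY1 letters in 9 (13.8%), against 2.88%. At least 1 motif was found in 29 of the 65 (44.6%), against 13.8% of all promoters. These are matches of letters and not shown to be bound. The ratio differed little with them: the median log2 ratio was 0.52 with the NRF1 letters and 0.49 without, 0.53 with the ETS letters and 0.46 without, and 0.54 with the YY1 letters and 0.49 without.

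Nearly all nuclear subunit genes had higher scaled counts in UKS than in KS, by a modest and rather even amount. Of the 86 genes, 79 were measured, and 78 of these had a log2 ratio above 0, against 51.9% of all measured genes. Their median log2 ratio was 0.47, with quartiles of 0.32 and 0.58 and a range from -0.22 to 1.43. Counting error alone left 74 of the 79 ratios with an interval wholly above 1, 1 wholly below and 4 spanning it. The same count was not taken over all measured genes, so it does not set the subunit genes apart.

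Few subunit genes differed by a large amount. At least 1.5-fold higher in UKS were 19 of the 79 (24.1%), against 15.4% of all measured genes, and 0 were at least 1.5-fold lower, against 21.1% of all. At least 2-fold higher was 1 gene, Cox6b2 (1.27%), against 5.81% of all, and 0 were at least 2-fold lower, against 10.7%. Summed, the measured subunit genes took 212825 counts in UKS and 190844 in KS, or 0.917% of the UKS library and 0.718% of the KS library. In such RNA a higher level in each cell and a larger share of cells with that level cannot be told apart.

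**Figure D1:**
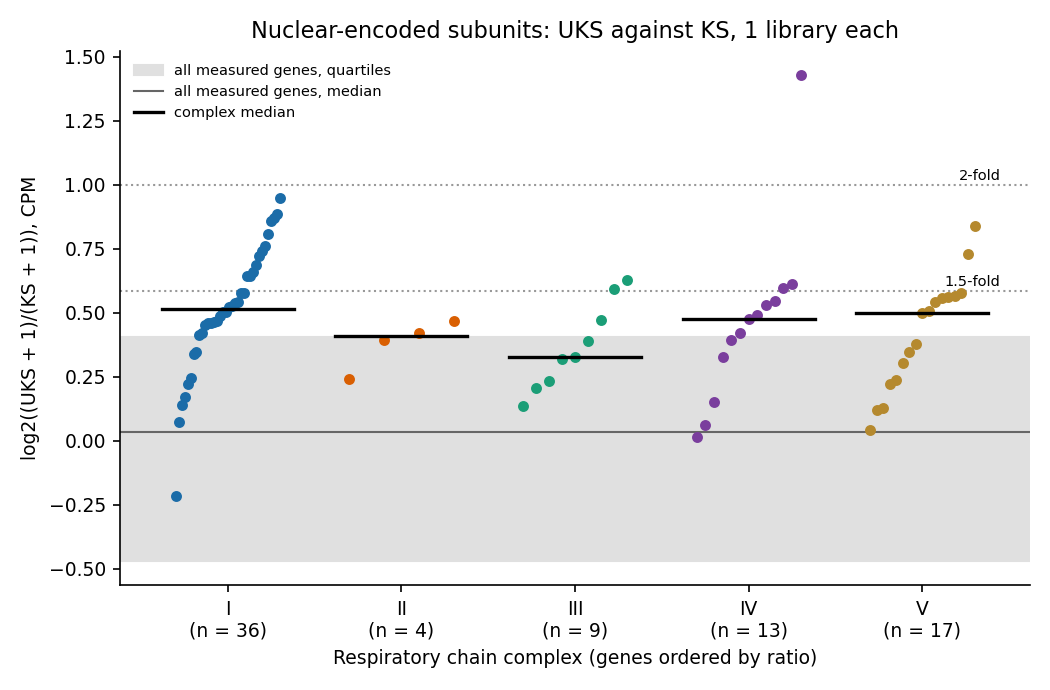
Log2 ratio of UKS over KS (CPM, 1 added to each) for the 79 measured nuclear subunit genes by complex, 1 point a gene, with complex medians as black bars. The grey band spans the quartiles of all 13015 measured genes, and 1 gene, Ndufs1 of complex I, lies below 0.

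Complex I, the NADH dehydrogenase and the largest of the complexes, had the most genes past 1.5-fold, 12 of 36. The share of all measured genes was 15.4%. The median log2 ratio of the complex was 0.51. Its summed level was 2256 CPM in UKS and 1616 CPM in KS, a fold of 1.40 [1.38 to 1.41]. The 12 were all accessory subunits, which surround the catalytic core and do not carry electrons. Among the 19 accessory genes of the membrane arm 10 were past 1.5-fold, with a group median of 0.64. Among the 9 of the peripheral arm there were 2, Ndufa2 and Ndufa5, with a group median of 0.47. The 7 core genes, which hold the flavin and the iron-sulphur clusters, had a median of 0.46 and 0 past 1.5-fold. With so few genes, 2 of 9 and 0 of 7 cannot be set apart from the share of all genes.

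Ndufc1, a small accessory subunit of the membrane arm on chr3:51404677-51408988, had 537 counts in UKS and 302 in KS, and the highest ratio in complex I (log2 ratio 0.95; 2.01-fold [1.74 to 2.32]). Ndufb11, an X-linked accessory subunit, had 1759 counts in UKS and 1065 in KS (log2 ratio 0.88). Ndufa13, also known as GRIM-19 and needed for assembly of the complex, had 1938 counts in UKS and 1187 in KS (0.87). In each of these the UKS value stands above the KS value beyond counting error. Ndufa2, a thioredoxin-fold subunit of the peripheral arm, had 1650 counts in UKS and 1017 in KS (0.86). Ndufa5 of the same arm had 654 counts in UKS and 411 in KS (0.81). Ndufb9 had 1746 counts in UKS and 1155 in KS (0.76).

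The other 6 accessory genes past 1.5-fold, all of the membrane arm, lay between log2 ratios of 0.64 and 0.74. Ndufa8, which lies on the face toward the intermembrane space, had 1741 counts in UKS and 1166 in KS. Ndufb2 had 480 counts in UKS and 319 in KS. Ndufa3 had 367 counts in UKS and 248 in KS. Ndufa11, a subunit that stabilises the membrane arm, had 1357 counts in UKS and 962 in KS. Ndufa1, an X-linked subunit needed for assembly, had 488 counts in UKS and 344 in KS. Ndufb7 had 1499 counts in UKS and 1077 in KS. All 6 were higher in UKS by similar amounts, from low to moderate levels. The threshold cuts through a dense stretch of ratios, with Ndufs7 (0.58) just under it.

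**Figure D2:**
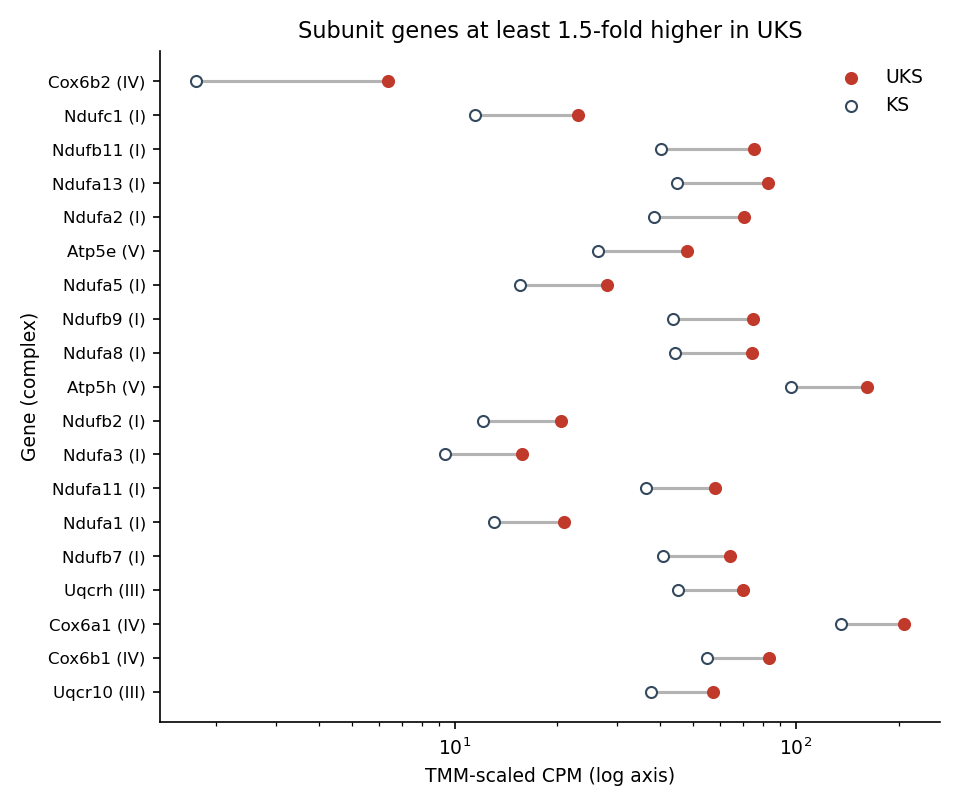
TMM-scaled CPM on a log axis in UKS (filled) and KS (open) for the 19 subunit genes at least 1.5-fold higher in UKS, ordered by log2 ratio, with the complex in brackets. Of these genes 12 belong to complex I, and Cox6b2 is both the lowest in level and the farthest apart.

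The core genes of complex I stood apart from each other. Ndufs1, the largest core subunit, was the 1 measured gene of all 79 that was lower in UKS, with 2146 counts in UKS and 2822 in KS (log2 ratio -0.22; ratio 0.860 [0.813 to 0.910]). It lies on chr1:63143596-63176833. The core subunits Ndufs7 (0.58), Ndufs3 (0.53), Ndufv1 (0.49), Ndufv2 (0.42) and Ndufs8 (0.34) were higher in UKS. Ndufs4, an accessory subunit of the peripheral arm whose loss causes encephalopathy in mice, came next from the bottom within complex I, with 860 counts in UKS and 922 in KS (0.07; ratio 1.05 [0.960 to 1.16]). Ndufab1, the mitochondrial acyl carrier protein that sits in both arms, had a log2 ratio of 0.22.

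Complex II, succinate dehydrogenase, had 4 genes that lay close together, with 0 past 1.5-fold, against 15.4% of all measured genes. With 4 genes this cannot be set apart from that share. Its median log2 ratio was 0.41 and its summed level was 638 CPM in UKS and 505 CPM in KS (1.26-fold [1.23 to 1.29]). Sdhc, a membrane anchor, had 2578 counts in UKS and 2098 in KS (0.47). Sdhb, the iron-sulphur subunit, had 2529 counts in UKS and 2128 in KS (0.42). Sdhd, the other anchor, was at 0.39. Sdha, the flavoprotein that oxidises succinate, had 7095 counts in UKS and 6791 in KS, the lowest ratio of the complex (0.24). Complex II thus spans 0.23 on the log2 scale, the narrowest of the 5 complexes and also the one with the fewest genes.

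Complex III, the cytochrome bc1 complex, had the lowest median of the complexes, 0.33, with all 9 genes above 0. Its summed level was 934 CPM in UKS and 752 CPM in KS (1.24-fold [1.22 to 1.27]). The 2 past 1.5-fold, against 15.4% of all measured genes, were small subunits without redox centres. With so few genes, 2 of 9 cannot be set apart from that share. Uqcrh, the hinge protein, had 1638 counts in UKS and 1188 in KS (0.63). Uqcr10 had 1337 counts in UKS and 993 in KS (0.59), just over the threshold. With the trend with transcript length and GC content subtracted, as described below, 0 of the 9 were past 1.5-fold. Of the subunits that carry electrons, the cytochrome Cyc1 was at 0.39 and the Rieske iron-sulphur protein Uqcrfs1, with 2191 counts in UKS and 2146 in KS, was at 0.20. The large core proteins were low in the order: Uqcrc1 was at 0.23, and Uqcrc2, with 2774 counts in UKS and 2852 in KS, was lowest at 0.14.

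Complex IV, cytochrome c oxidase, had 13 measured genes of 20, and these held the widest range of ratios through a single low gene, Cox6b2. The others lay between 0.01 and 0.61, a narrower span than that of complex I (1.16) or complex V (0.80). Its median log2 ratio was 0.48 and its summed level 1539 CPM in UKS and 1123 CPM in KS (1.37-fold [1.35 to 1.39]). Cox6b2, known as the testis isoform of subunit 6b, had 149 counts in UKS and 46 in KS, the highest ratio of all the subunit genes (log2 ratio 1.43; 3.66-fold [2.62 to 5.21]). It lies on chr7:4751792-4753094, and its level was 6.38 CPM in UKS and 1.74 CPM in KS. Its ubiquitous partner Cox6b1 had 1942 counts in UKS and 1445 in KS (0.59). Cox6b2 made up 7.13% of the Cox6b counts in UKS [6.06 to 8.31] and 3.09% in KS [2.27 to 4.09]. The isoform was a minor one in both lines, and the share intervals do not overlap.

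Cox6a1, the ubiquitous isoform of subunit 6a, had 4856 counts in UKS and 3587 in KS (0.61). At the low end, Ndufa4 and Cox7a2 barely differed. Ndufa4, named for complex I and later placed in complex IV, had 1825 counts in UKS and 2044 in KS (log2 ratio 0.01; ratio 1.01 [0.947 to 1.08]). Its sign turns with DESeq2 size factors. Cox7a2, the ubiquitous isoform of subunit 7a, had 1010 counts in UKS and 1093 in KS (0.06; ratio 1.04 [0.958 to 1.14]). The related Cox7a2l, a factor that joins complexes III and IV into supercomplexes, had 3273 counts in UKS and 2556 in KS (0.53). Of the counts of Cox7a1, Cox7a2 and Cox7a2l, Cox7a2l took 76.3% in UKS [75.0 to 77.6] and 69.9% in KS [68.4 to 71.4]. X-linked Cox7b had 1447 counts in UKS and 1469 in KS (0.15).

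Apart from Cox6b2, the isoforms of complex IV known for heart, skeletal muscle, lung or testis were at or near 0. Cox4i2, the lung isoform, had 8 counts in UKS and 1 in KS. Cox6a2, of heart and skeletal muscle, had 7 counts in UKS and 4 in KS, and Cox7a1, of the same tissues, had 6 counts in UKS and 9 in KS. Ndufa4l2, a gene known to respond to hypoxia, had 7 counts in UKS and 6 in KS. Cox8b, Cox8c and Cox7b2 had 0 counts in both, which allows up to 0.128 CPM in UKS and 0.114 CPM in KS (3 counts per library). None of these 7 genes passed the filter, and with them Cox4i1, Cox6a1, Cox7b, Cox8a and Ndufa4 each held over 99.6% of the counts of their isoform sets in UKS and over 99.7% in KS.

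Complex V had a median log2 ratio of 0.50 but the smallest difference in summed level, 3748 CPM in UKS and 3233 CPM in KS (1.16-fold [1.15 to 1.17]). The catalytic genes of the F1 head hold most of these counts and had low ratios. Atp5b, the catalytic beta subunit, had 30327 counts in UKS and 33327 in KS (log2 ratio 0.04; 1.03-fold [1.01 to 1.05]). Atp5a1, the alpha subunit, had 19364 counts in UKS and 20167 in KS (0.12). The gamma and delta subunits Atp5c1 and Atp5d were at 0.30 and 0.22. Atp5e, the small epsilon subunit of the central stalk, was the exception within F1, with 1120 counts in UKS and 696 in KS (log2 ratio 0.84; 1.82-fold). It lies on chr2:174461072-174464105.

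The parts of complex V outside the F1 head had higher medians than the F1 head, at 0.22, although single genes overlapped. The medians were 0.45 for the peripheral stalk, 0.56 for the c-ring and 0.54 for the small membrane subunits. Atp5h, subunit d of the peripheral stalk, had 3772 counts in UKS and 2560 in KS (0.73). Its stalk partners Atp5o (0.56), Atp5j (0.35) and Atp5f1 (0.13) were spread out. The small membrane subunits Atp5j2, Atp5k and Atp5l lay between 0.50 and 0.56. The c-ring, whose rotation drives the enzyme, is built from one protein that 3 genes encode. Atp5g3 had 4052 counts in UKS and 3063 in KS (0.58), Atp5g2 had 367 counts in UKS and 272 in KS (0.56), and Atp5g1 had 1914 counts in UKS and 1660 in KS (0.38). Atp5g3 held 64.0% of the c-ring counts in UKS [62.8 to 65.2] and 61.3% in KS [60.0 to 62.7], while Atp5g1 held 30.2% in UKS [29.1 to 31.4] and 33.2% in KS [31.9 to 34.6]. Per transcript length Atp5g1 held 6.25% in UKS and 7.11% in KS, and Atp5g2 held 7.50% in UKS and 7.30% in KS. Atp5s and Atp5sl carry the name but are not subunits, and were at 0.24 and 0.51.

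Ranked by TPM, a level that divides counts by transcript length, the order was much the same in the lines. Atp5b led in both, at 1517 TPM in UKS and 1630 TPM in KS. Cox4i1, the ubiquitous isoform of subunit 4, followed, at 998 TPM in UKS and 755 TPM in KS. Next came Cox8a, the ubiquitous isoform of subunit 8, at 818 TPM in UKS and 641 TPM in KS. Cox6a1 stood at 815 TPM in UKS and 589 TPM in KS, and Atp5a1 at 694 TPM in UKS and 707 TPM in KS. These were the top 5 genes in both libraries, with Atp5a1 at rank 5 in UKS and at rank 3 in KS.

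The ratio followed transcript length and GC content, over all genes and among the subunit genes. Over 12997 measured genes with a transcript in GENCODE M21, Spearman's rho of the log2 ratio with length was -0.40 and with GC content 0.52. Over the 79 subunit genes it was -0.46 with length and 0.34 with GC content, as a description over genes of the same 2 libraries. Subunit transcripts are short, 43 of the 79 being under 1000 nt, and those 43 had a median log2 ratio of 0.56. The 36 longer ones had 0.36. Other genes showed the same order, with a median of 0.38 over the 674 under 1000 nt and 0.00 over the 12244 longer ones.

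The trend with length and GC content, fitted over the other measured genes, was then subtracted. The subunit genes had a median log2 ratio of 0.16, and 59 of 79 (74.7%) stayed above 0, against 50.6% of all measured genes. Among the subunit genes rho of the remaining log2 ratio was -0.03 with length but -0.61 with GC content, so that those poor in GC were raised and those rich in GC lowered by the subtraction relative to each other. The complex medians were then 0.24 for I, 0.19 for II, 0.07 for III, 0.15 for IV and 0.09 for V. Past 1.5-fold were 7 genes (8.86%), against 12.8% of all measured genes, and 3 of the 19 were among them: Ndufc1 (1.04), Ndufb2 (1.17) and Cox6b2 (0.90). The other 4 were Cox7c (0.94), Ndufv2 (0.72), Atp5s (0.67) and Atp5g1 (0.65). Cox7c has a GC content of 38.4%, Ndufv2 of 42.0% and Atp5s of 40.2%, and the annotated transcript of Atp5g1 is 4715 nt long. Ndufc1 and Ndufb2 were also raised by the subtraction, from 0.95 and 0.72. Ndufc1 has a GC content of 44.1%, and Ndufb2 has one of 43.7% and an annotated transcript of 4371 nt. The catalytic F1 gene Atp5b stood at -0.24 and Atp5a1 at -0.19, while Ndufs1 was at -0.04. The 19 membrane-arm accessory genes and the 7 core genes of complex I also differ in length, with median transcripts of 861 nt and 1623 nt. Their median log2 ratios with the trend subtracted were 0.28 and 0.01. Past 1.5-fold with the trend subtracted were 3 of the 36 complex I genes, 2 of them among the 19 and 1 among the 7 core genes. What the trend comes from was not tested.

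**Figure D3:**
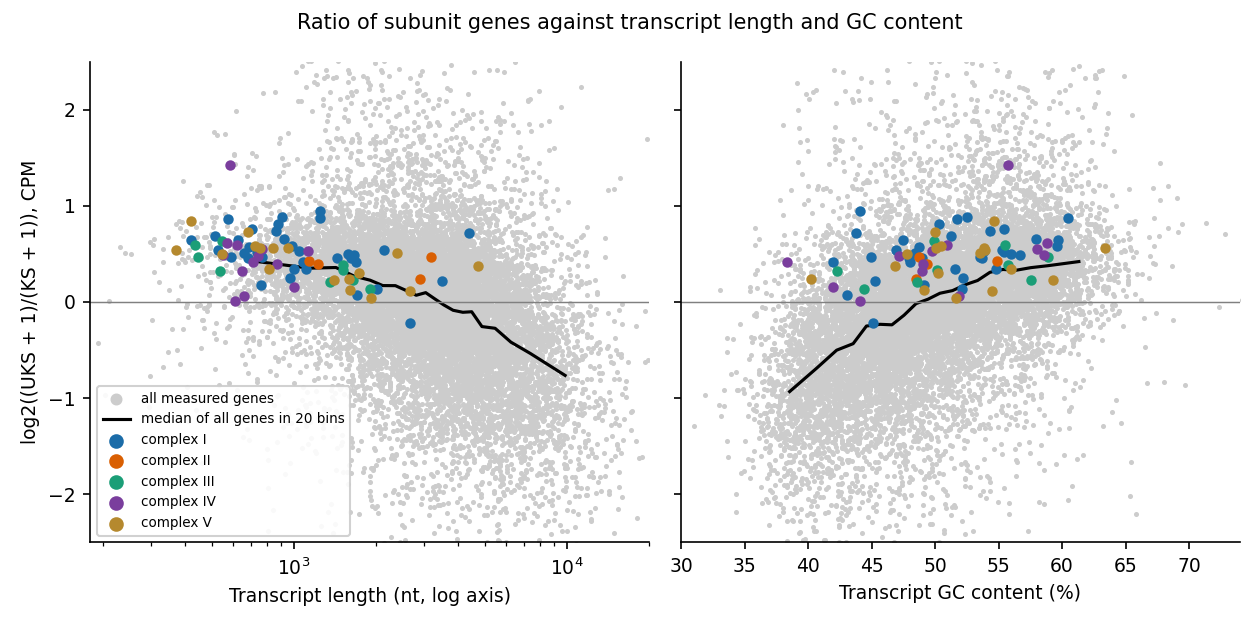
Log2 ratio of UKS over KS against transcript length (left, log axis) and GC content (right) for all measured genes (grey) and the 79 subunit genes (coloured by complex), with the median of all genes in 20 bins as a black line. The subunit genes sit at the short end, where the line is above 0, and values beyond 2.5 either way are not drawn.

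Reads shared with other loci touch some of these genes. Of the measured genes, 21 have a stretch of at least 200 nt elsewhere in the transcriptome at 95% identity or more, mostly in processed pseudogenes. Ndufb4 (299 counts in UKS and 281 in KS) matches the pseudogene Ndufb4c at 100% identity, and that row held more counts than the gene, 404 in UKS and 328 in KS. Atp5l matches the pseudogene Gm10221 at 100%, with 262 counts in UKS and 179 in KS. Exons of 28 measured subunit genes overlap another gene, and whether counting used strand is not given. Atp5j overlaps Gabpa, which encodes an ETS factor, over 701 nt head to head on chromosome 16: Atp5j was at 0.35 and Gabpa at -0.95.

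Of the subunit genes 3 are X-linked. Ndufb11 (0.88), Ndufa1 (0.64) and Cox7b (0.15) were all above 0, while 420 measured X-linked genes had a median log2 ratio of -0.29 and an upper quartile of 0.16, close to Cox7b. With the trend subtracted the median of the X-linked genes was -0.07. The part of the sex-chromosome difference in these ratios was not tested.

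The genes around the respiratory chain gave a mixed picture. Assembly factors, which build the complexes but are not part of them, had a median log2 ratio of 0.27 over 47 measured of 48. At least 1.5-fold higher were 8 (a share near the 15.4% of all measured genes), and 0 were lower, against 21.1% of all. Ndufaf3, a complex I factor, had 275 counts in UKS and 143 in KS (0.99). Uqcc2, of complex III, was at 0.88, and Cox14 and Cox19, of complex IV, were at 0.88 and 0.79. With the trend subtracted the median of the assembly factors was 0.26. The list of carriers, import and exchange proteins had a median of 0.27 over 23 genes. Past 1.5-fold higher were 3 (a share under that of all genes): Timm50 (0.81), Coq7 (0.74) and Coq6 (0.61). At least 1.5-fold lower were 0, against 21.1% of all measured genes. With the trend subtracted the median of this list was 0.09, and Timm50, Coq7 and Coq6 stood at 0.29, 0.35 and 0.17, under the threshold. Past 1.5-fold higher were then 2 of the 23 genes, Cycs (0.84) and Tomm20 (0.66), against 12.8% of all measured genes. Coq5, another enzyme of ubiquinone synthesis, was at 0.55. Cycs, cytochrome c itself, had 2474 counts in UKS and 2280 in KS (0.29 as counted).

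The tricarboxylic acid cycle lay near the median of all genes as counted. Its 18 genes had a median log2 ratio of -0.05, with 0 at least 1.5-fold higher, against 15.4% of all measured genes. At least 1.5-fold lower was 1 gene (5.56%), against 21.1% of all. This was Suclg2, the GTP-forming subunit of succinyl-CoA ligase, with 1762 counts in UKS and 3488 in KS (-0.80). Pdha1 (-0.41), Sucla2 (-0.40) and Idh3g (0.38) followed in size. With the trend subtracted the median of the cycle was -0.11, and 5 of 18 (27.8%) were above 0, against 50.6% of all measured genes. The regulators of mitochondrial biogenesis had a median of -0.04 over 18 measured of 21, with 2 at least 1.5-fold higher (11.1%, against 15.4% of all genes) and 4 lower (22.2%, against 21.1%). Ppargc1a, the coactivator PGC-1alpha, had 19 counts in UKS and 75 in KS (-1.08). Ppard was the farthest above 0 (2145 counts in UKS and 1132 in KS; 1.08), Gabpa had 1095 counts in UKS and 2413 in KS (-0.95), and Lrpprc, which binds mitochondrial mRNA, was at -0.79. Nrf1, whose motif was searched above, had 1083 counts in UKS and 1177 in KS (0.06). With the trend subtracted 2 of the 18 regulators stood past 1.5-fold above KS, a share near the 12.8% of all measured genes. Below it stood 0, against 1582 of 12997 measured genes. Ppargc1a was then at -0.27, Gabpa at -0.25, Lrpprc at -0.56 and Ppard at 0.73.

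Subunits made inside the mitochondrion lay on the other side of 0 from most nuclear ones. The 13 genes had a median log2 ratio of -0.50, with 6 at least 1.5-fold lower (46.2%, against 21.1% of all genes) and 0 higher, among them mt-Nd2 (12068 counts in UKS and 29682 in KS; -1.12), mt-Cytb (-1.05), mt-Nd4 (-0.98) and mt-Atp8 (-0.97). With the trend subtracted their median was -0.01, and 0 were at least 1.5-fold lower. The 3 then higher were mt-Atp6 (0.34 as counted), mt-Co3 (0.22) and mt-Nd3 (0.13), which were also the 3 above 0 as counted. Those 3 genes had 1337 to 1700 counts in UKS and 1192 to 1651 in KS. Of 12997 measured genes 1582 were at least 1.5-fold lower with the trend subtracted and 1662 higher. With 13 genes, 0 lower and 3 higher cannot be set apart from those shares. Copies of the mitochondrial genes at other loci were not sought. Of all subunit counts, nuclear and mitochondrial, the nuclear genes held 43.8% in UKS and 29.9% in KS. Among the mitochondrial counts mt-Co1 alone held 143605 of 273323 in UKS and 190666 of 447394 in KS.

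**Figure D4:**
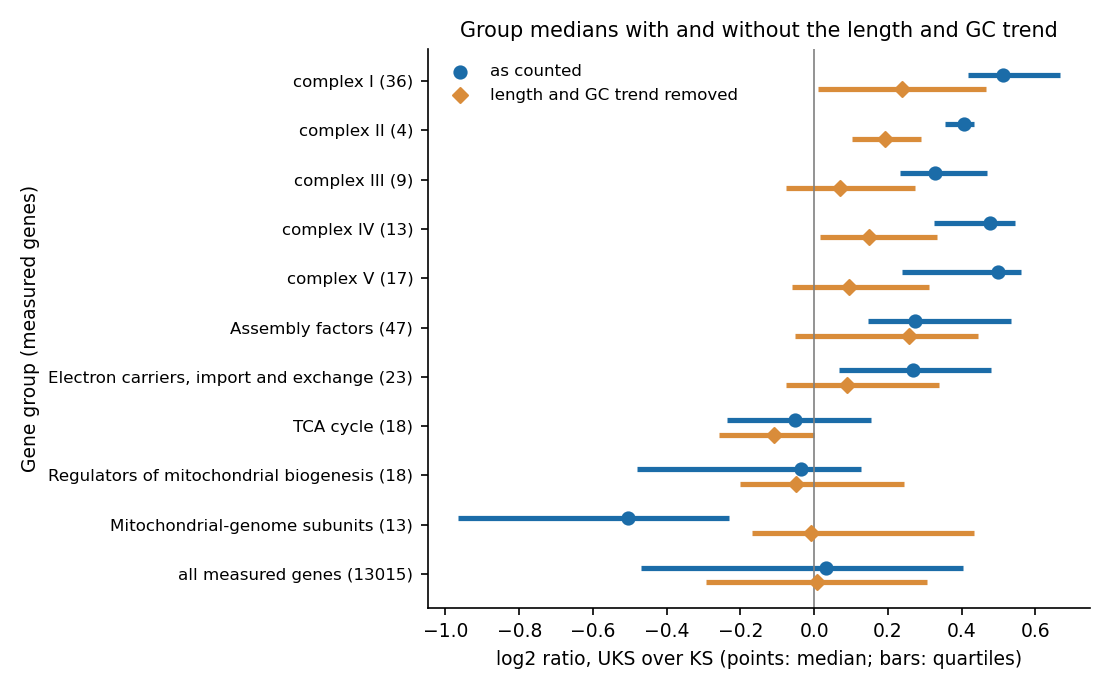
Median log2 ratio of UKS over KS (points) with quartiles (bars) for each complex, the surrounding gene lists and all measured genes, as counted (blue circles) and with the trend with length and GC content subtracted (orange diamonds). Complex I lies farthest above 0 among the complexes in both, and the mitochondrial-genome subunits lie at -0.50 as counted and at -0.01 with the trend subtracted.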

How the data were processed

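RNA-seq libraries of 2 mouse fibroblast lines, 1 UKS and 1 KS, were analysed. The authors deposited estimated counts per gene, some of them fractional, for 51912 genes in each library. HISAT2, StringTie and the build GRCm38.p5 are named per the submitters' processing notes, without roles. How reads were counted, on which annotation and with which strand setting is not given in the sources used here. One engineered change common to UKS and KS is not reported here.

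The deposited counts were rounded to whole numbers, totalled 23205734 in UKS and 26561600 in KS, and were scaled with TMM factors of 1.006 in UKS and 0.994 in KS (edgeR 4.0.16, R 4.3.3), so that 1 count is 0.0428 CPM in UKS and 0.0379 CPM in KS. TPM was computed from the counts and the length of the longest coding transcript. Genes were kept from a mean of 1 CPM upward, and 1 CPM was added before the log2 ratio. Intervals of ratios are exact binomial and those of shares Clopper-Pearson (scipy 1.17.1), at 95%, for counting error only: no molecular identifiers are named. Transcript length, GC content and positions came from GENCODE M21 on GRCm38, which matched 51633 of the gene IDs. The dependence of the log2 ratio on both was fitted over the measured genes other than the subunit genes (statsmodels 0.14.6). The method was run on simulated data with a planted trend of the form it fits, which cannot show that it suits these data. Copies were sought with BLAST 2.17.0. DESeq2 1.42.0 gave alternative size factors.

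With 1 library per line no test was run. Genes named are those at least 1.5-fold apart, the 2 highest and 2 lowest in each complex, the isoform sets, the 3 most abundant per length, the X-linked genes, and up to 4 of each surrounding list by size of log2 ratio. Genes outside this rule, such as Cyc1, Atp5o and Cox7c, were named after their values were seen. The subunit genes and the lists were chosen with earlier results of these data known. Alternatives covered the scaling, the added CPM, the filter, rounding, the trend, copies, isoforms and the placing of Ndufa4.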

Additional observations from a re-analysis of the deposited data

How the results depend on the processing

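No paired analysis was possible because each line has 1 sample, and for the same reason no replicate could be left out. Subtracting the trend with length and GC content moved the most values: the median log2 ratio became 0.16 over all subunit genes, 0.24, 0.19, 0.0707, 0.15 and 0.0947 for complexes I to V, -0.00951 for mitochondrial-genome subunits and 0.0877 for carriers, import and exchange, with 7 subunit genes at least 1.5-fold and 2 at least 2-fold higher, and the sign turned for 19 of 79 genes. The fold of summed CPM for complex V was 1.17 without TMM factors. With DESeq2 size factors it was 1.37, 1.22, 1.34 and 1.14 for complexes I, III, IV and V, and with upper quartile factors 1.43, 1.30, 1.28, 1.41 and 1.19 for I to V. The sign turned for 1 gene with DESeq2 size factors and for 0 under the other scalings. The complex V median was 0.40 with 5 CPM added and 0.35 without genes that have near-identical copies. The count at least 2-fold higher was 0 with 5 CPM added, with a filter of 10 CPM, and without tissue-restricted isoforms and non-subunits. Placing Ndufa4 and Ndufa4l2 in complex I, chosen after seeing the data, gave complex IV a fold of 1.40. Shares per transcript length were 65.2% in UKS and 57.4% in KS for Cox7a2l, 86.3% in UKS and 85.6% in KS for Atp5g3, and 6.25% in UKS and 7.11% in KS for Atp5g1. The cause of the trend was not tested. Depth limits the 7 genes under the filter, and the absence of replicates limits all ratios.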
